A study of Mus musculus with 12 samples.

Results

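CC chemokines are small secreted proteins that bind G protein-coupled receptors of the CCR family on leukocytes and draw these cells along a gradient of the ligand. Monocytes enter tissues mainly along ligands of Ccr2, while ligands of Ccr1 act on monocytes, macrophages, T cells and neutrophils, and ligands of Ccr4 act on regulatory and other helper T cells. In mammary tumours they are made by the carcinoma cells, macrophages, neutrophils and lymphocytes, and their genes lie in clusters that arose by duplication. The mRNA of 10 CC chemokine genes, out of 35944 genes annotated in the data, was followed in 12 mouse tumours. The genes were chosen by name: Ccl2, Ccl7, Ccl8 and Ccl12, the monocyte chemoattractant proteins; Ccl3, Ccl4 and Ccl5, inflammatory chemokines of myeloid cells and lymphocytes; Ccl6 and Ccl9, ligands of Ccr1 that were described in the mouse; and Ccl22, a ligand of Ccr4. Each of the 10 had at least 10 estimated reads in all 12 tumours, so that none was lost to the filter on low counts.

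Each tumour grew from 100000 4T1 cells, a mammary carcinoma line of the mouse, placed under the right flank skin of a female BALB/c mouse aged 6 to 8 weeks, and RNA was taken on day 21. From day 5 all mice received 3 µg of extracellular vesicles (EVs) beside the tumour every 2 days. The EVs came from the mouse endothelial line MS-1 and had been electroporated with a mimic of the nematode miRNA cel-miR-67 for ctrl, or of miR-222-3p, miR-183-5p or miR-142-5p, with 3 tumours in each of the 4 groups. The controls thus also carried tumours and received electroporated EVs, and the 3 comparisons against ctrl share the same 3 ctrl tumours. All tumours came from 1 cell line, and the whole tumour was used, so that fewer cells of a type and less RNA per cell cannot be told apart. The libraries hold polyadenylated RNA, and the level of the delivered miRNAs in the tumours was not analysed here.

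The miRNA sequences are shown because the comparisons ask whether their delivery was followed by a change in these genes. The mature mouse sequences below come from RefSeq (GRCm38.p6), 5′ to 3′, with bases 2 to 8, the seed that pairs with target mRNAs, in capitals. The mouse gene is listed there as miR-142a-5p. The sense strand of the miR-222-3p mimic, as the study lists it, has the same seed but ends earlier than the mature sequence below. The 3 seeds differ, and no 2 of the miRNAs share one.
miR-142-5p: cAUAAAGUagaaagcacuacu
miR-183-5p: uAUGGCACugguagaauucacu
miR-222-3p: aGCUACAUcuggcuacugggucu

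The 3′ UTR of each gene was searched on its sense strand for the match to bases 2 to 8 of each miRNA, ACTTTAT for miR-142-5p, GTGCCAT for miR-183-5p and ATGTAGC for miR-222-3p. Of the 10 genes, 2 held a match, or 20%, while 22.5% of the 10287 tested genes with a 3′ UTR in the same range of lengths (165 to 2465 bases) held one. The first match was one to miR-222-3p in Ccl6, at chr11:83588385-83588407 on the minus strand of GRCm38, and the other was one to miR-183-5p in Ccl22, at chr8:94751523-94751545 on the plus strand. Both are printed in the sense of the mRNA, with the match in capitals.
Ccl6: tccactccATGTAGCcacaggac
Ccl22: cacctattGTGCCATgtgtcatt
A match of letters is a description and shows no binding. No 3′ UTR of the 10 held the miR-142-5p match. The pentamer ATTTA, the core of AU-rich elements that shorten the life of many cytokine mRNAs, stood 5 times in the 167 bases of the Ccl12 3′ UTR and 5 times in the 409 bases of that of Ccl3, but was not found in those of Ccl5 and Ccl8. The median density over the 10 genes was 3.94 per kb, against 1.24 per kb over the genes of the same range of 3′ UTR lengths. Within that range those genes had longer 3′ UTRs (median 939 bases, against 355.5 in the 10), so neither this density nor the share with a seed match was compared at equal length. ATTTA stood 3 or more times in 40% of the 10, 27.6% of those genes and 39.2% of all tested protein-coding genes with a 3′ UTR.

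The genes lie in 3 places (GRCm38). On chromosome 11, Ccl2, Ccl7, Ccl12 and Ccl8 occupy 81.2 kb (chr11:82035571-82116799), and Ccl5, Ccl9, Ccl6, Ccl3 and Ccl4 occupy 139 kb (chr11:83525778-83664683). A gap of 1409 kb separates both clusters, and Ccl22 lies on chromosome 8 (chr8:94745590-94751699). Ccl2 and Ccl7 were 77.2% identical over 149 bases of their mRNAs, and Ccl6 and Ccl9 83.6% over 177 bases, so reads could be assigned to each of them outside short stretches. For Ccl6, a transcript that retains an intron took 22.4% to 33.8% of the reads assigned to the gene.

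The depth was 20285968 to 27021401 estimated reads per tumour, and the members had between 28 reads (Ccl22 in 1 tumour) and 6167 reads (Ccl6). The carcinoma keratins Krt8 and Krt18 were present in all tumours (481 TPM or more each). Some tumours stood apart before any chemokine was compared. In miR-142-5p tumour 3 the B cell genes Cd79a and Ms4a1 summed to 189 TPM, whereas they reached at most 1.22 TPM in the other 11 tumours. The T and NK cell genes summed to 107 TPM there against 19.5 to 59.7 TPM elsewhere. The T cell genes Cd3e (32.7 TPM), Cd8a (23.0 TPM) and Cd4 (15.2 TPM) stood out. Nkg7 (34.5 TPM, against at most 31.5 TPM elsewhere) hardly did. The NK cell gene Ncr1 (1.39 TPM) was higher in miR-142-5p tumour 2 (2.83 TPM) and ctrl tumour 3 (2.24 TPM). In miR-183-5p tumour 3 the muscle genes Acta1, Ckm and Myh4 summed to 169 TPM against at most 1.57 TPM elsewhere. The 7 monocyte and macrophage genes had their lowest sum there (705 TPM, against 893 to 1541 TPM). Of these, Adgre1, Csf1r, Mrc1 and C1qa (397 TPM) were each lowest in that tumour, while Cd68 (108 TPM), Cd14 (92.4 TPM) and Ly6c2 (28.7 TPM) were not. MiR-183-5p tumour 3 and all 3 tumours treated with miR-222-3p-EVs also formed a library set of their own by the share of reads given to the pseudogene Gm28661, so that only 1 tumour separates the effect of this set from that of miR-222-3p. The fold changes of the members that these tumours moved most are also given without them.

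The 10 chemokines differed far more from each other than between groups. In TPM, a level per unit of transcript length scaled to the same sum in each library, Ccl6 was the most abundant with 287 ± 71.5 TPM (SD, n = 12 tumours), followed by Ccl8 with 198 ± 113, Ccl12 with 88.1 ± 14.1 and Ccl2 with 79.3 ± 17.7 TPM. Ccl5 (47.3 ± 18.0 TPM), Ccl7 (45.3 ± 7.22 TPM) and Ccl9 (38.8 ± 13.2 TPM) came next, ahead of Ccl4 (19.4 ± 3.06 TPM), Ccl3 (15.5 ± 4.44 TPM) and Ccl22 (3.74 ± 5.90 TPM). Ccl6 and Ccl8 together made up 47.0% to 68.6% of the summed level. The Ccl6 level also counts the transcript that retains an intron (776 bases, against 1440 bases for the coding one). All reads of Ccl8 were given to a coding transcript. Levels of coding mRNA alone were not compared, so Ccl6 need not rank above Ccl8 by that measure. By summed TPM the order held in every tumour for 2 neighbouring pairs, Ccl8 over Ccl12 and Ccl9 over Ccl4, and in 11 of 12 tumours for Ccl2 over Ccl5 and Ccl3 over Ccl22. Ccl6 exceeded Ccl8 in 10 of 12 tumours (mean log2 ratio 0.68, SD 0.66) and Ccl4 exceeded Ccl3 in 9 (0.36, SD 0.32), where the mean ratio was little above its SD. The spread was wider than the difference for Ccl12 over Ccl2 (9 of 12 tumours, mean log2 ratio 0.17, SD 0.42), Ccl7 over Ccl9 (8 of 12, 0.28, SD 0.51) and Ccl5 over Ccl7 (4 of 12, 0.005, SD 0.53). Summed over the 10 genes, the level was 874 ± 233 TPM in ctrl, 937 ± 155 TPM in miR-142-5p, 699 ± 119 TPM in miR-183-5p and 782 ± 236 TPM in miR-222-3p (SD, n = 3 each), and the groups overlapped.

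**Figure D1:**
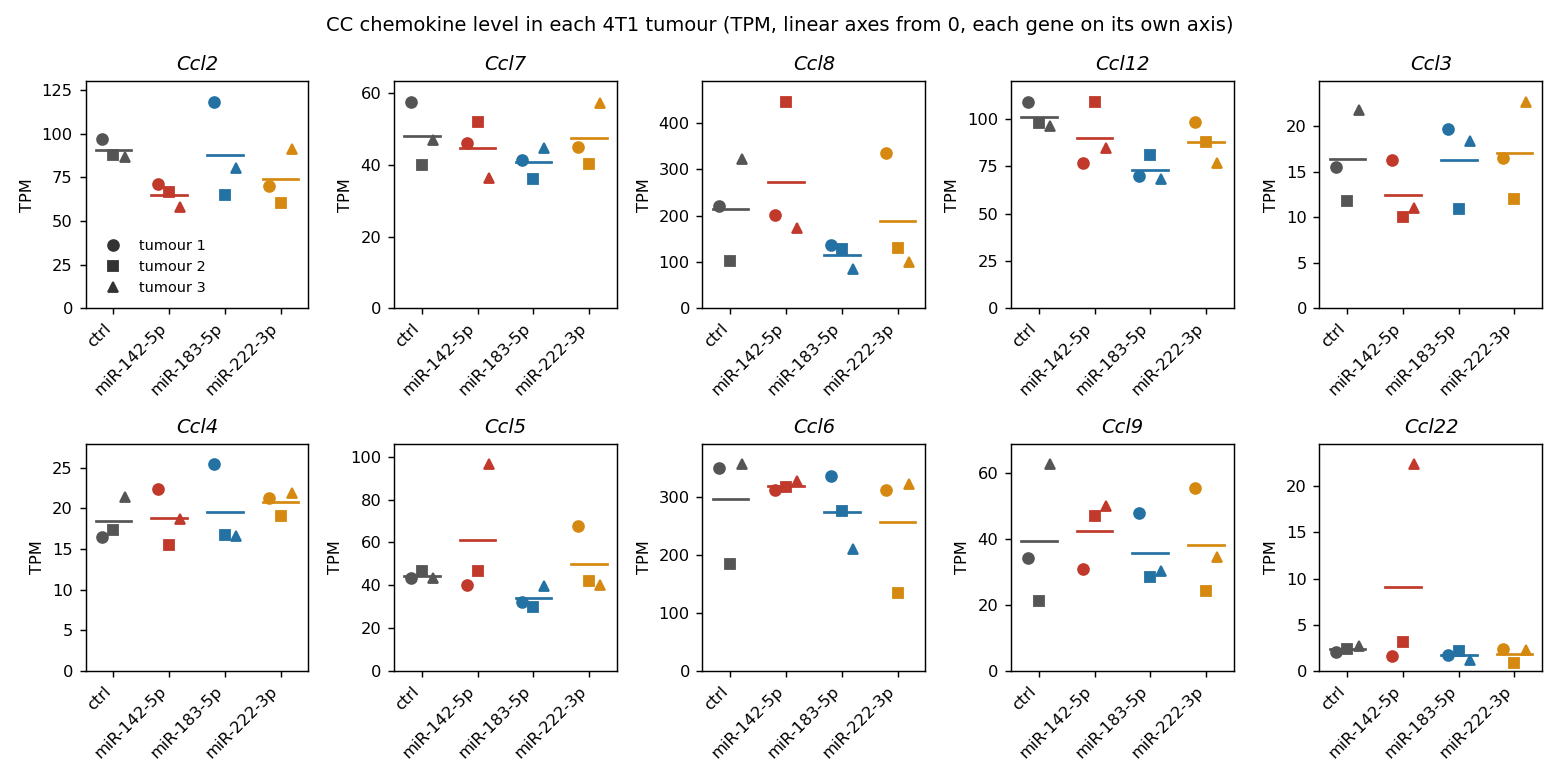
Level of each CC chemokine in each tumour, in TPM on a linear axis from 0, by EV group (points, tumours 1 to 3 by symbol, with lines for the group means). Ccl22 and Ccl5 reached their highest values, 22.4 and 96.4 TPM, in miR-142-5p tumour 3, and Ccl8 ranged from 84.2 to 446 TPM.

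Among the monocyte chemoattractants, Ccl2, the main ligand of Ccr2, was at 96.9, 87.5 and 86.6 TPM in ctrl tumours 1 to 3. It was at 71.0, 66.3 and 57.9 TPM in miR-142-5p, at 118, 64.9 and 80.4 TPM in miR-183-5p and at 69.8, 60.4 and 91.4 TPM in miR-222-3p. All 3 miR-142-5p tumours lay below all 3 ctrl tumours, whereas the other groups overlapped with ctrl. Against ctrl the log2 fold change in miR-142-5p was -0.46 (SE 0.24, 95% interval -0.93 to 0.01, unadjusted p = 0.0545, adjusted p = 1, DESeq2 Wald test). Without miR-142-5p tumour 3 it was -0.34. The log2 fold change was -0.03 (-0.50 to 0.44) for miR-183-5p and -0.29 (-0.76 to 0.18) for miR-222-3p.

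Ccl12, another ligand of mouse Ccr2, was at 109, 98.1 and 96.3 TPM in ctrl and at 77.0, 109 and 84.5 TPM in miR-142-5p. The miR-183-5p tumours had 69.9, 81.2 and 68.3 TPM and the miR-222-3p tumours 98.5, 88.1 and 76.7 TPM. The values of miR-183-5p were all below those of ctrl, while both other groups overlapped with ctrl. The log2 fold change for miR-183-5p was -0.45 (SE 0.17, 95% interval -0.79 to -0.11, unadjusted p = 0.0094, adjusted p = 1 in DESeq2), or 0.731 times the ctrl level. It was -0.41 without miR-183-5p tumour 3, which also leaves 1 library set in that comparison. In miR-142-5p and miR-222-3p the log2 fold change was -0.16 (-0.50 to 0.18) and -0.22 (-0.56 to 0.12).

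Ccl8, which in the mouse also signals through Ccr8, varied most among the abundant members. It was at 220, 103 and 323 TPM in ctrl, 201, 446 and 172 TPM in miR-142-5p, 136, 128 and 84.2 TPM in miR-183-5p and 334, 130 and 101 TPM in miR-222-3p. Each group with an EV-delivered miRNA overlapped with ctrl, whose own tumours ranged from 103 to 323 TPM. The log2 fold change against ctrl was 0.37 (-0.78 to 1.51) in miR-142-5p, -0.86 (-2.01 to 0.28) in miR-183-5p and -0.23 (-1.37 to 0.92) in miR-222-3p. The last 2 intervals include both -1 and 0, so that a fall of 1 log2 unit could not be told from no change at this spread. Without miR-183-5p tumour 3 the value in miR-183-5p was -0.68, and in miR-142-5p it was 0.64 without tumour 3 and -0.18 without tumour 2.

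Ccl7, a ligand of Ccr2 and of other CC receptors, was at 57.7, 40.1 and 46.9 TPM in ctrl and at 46.1, 51.9 and 36.4 TPM in miR-142-5p. It was at 41.5, 36.2 and 44.6 TPM in miR-183-5p and at 44.9, 40.2 and 57.2 TPM in miR-222-3p. All groups overlapped. The log2 fold change lay between -0.23 (miR-183-5p, 95% interval -0.70 to 0.23) and -0.03 (miR-222-3p, -0.49 to 0.43).

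Of the inflammatory chemokines, Ccl3, a product of activated myeloid cells, was at 15.5, 11.8 and 21.8 TPM in ctrl, 16.3, 9.99 and 11.02 TPM in miR-142-5p, 19.7, 10.9 and 18.4 TPM in miR-183-5p and 16.5, 12.0 and 22.7 TPM in miR-222-3p. Ccl4, made by activated macrophages and lymphocytes, was at 16.4, 17.4 and 21.4 TPM in ctrl, 22.3, 15.5 and 18.7 TPM in miR-142-5p, 25.4, 16.7 and 16.6 TPM in miR-183-5p and 21.2, 19.1 and 21.9 TPM in miR-222-3p. For both genes every group overlapped with ctrl. The log2 fold changes of Ccl3 lay between -0.37 (miR-142-5p, -1.05 to 0.31) and 0.07 (miR-222-3p, -0.60 to 0.74), and those of Ccl4 between 0.06 (miR-142-5p, -0.41 to 0.52) and 0.18 (miR-222-3p, -0.29 to 0.64).

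Ccl5, a chemokine of T cells, NK cells and macrophages, was at 43.5, 46.6 and 43.3 TPM in ctrl, the narrowest group of the 4. It was at 40.0, 46.5 and 96.4 TPM in miR-142-5p, 32.2, 29.7 and 39.8 TPM in miR-183-5p and 67.5, 41.9 and 40.3 TPM in miR-222-3p. The 3 miR-183-5p tumours were below all 9 others, though only just (39.8 against 40.0 TPM), and miR-142-5p tumour 3 was the highest of the 12. Against ctrl the log2 fold change was -0.37 in miR-183-5p (SE 0.29, -0.93 to 0.19), which was -0.50 without tumour 3 of that group. In miR-142-5p it was 0.44 (-0.12 to 0.997) with all tumours and 0.02 without tumour 3. In miR-222-3p it was 0.15 (-0.41 to 0.70).

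Of the Ccr1 ligands, Ccl6 was at 351, 185 and 357 TPM in ctrl, 314, 318 and 328 TPM in miR-142-5p, 336, 277 and 210 TPM in miR-183-5p and 314, 135 and 323 TPM in miR-222-3p. Ccl9 was at 34.2, 21.1 and 62.5 TPM in ctrl, 30.9, 46.8 and 49.8 TPM in miR-142-5p, 47.8, 28.5 and 30.4 TPM in miR-183-5p and 55.3, 24.3 and 34.4 TPM in miR-222-3p. Ctrl tumour 2 and miR-222-3p tumour 2 were the lowest for both genes, and all groups overlapped. The log2 fold changes of Ccl6 lay between -0.22 (miR-222-3p, -0.84 to 0.39) and 0.11 (miR-142-5p, -0.51 to 0.72), and in miR-183-5p the value was -0.11 with all tumours and 0.05 without tumour 3. Those of Ccl9 lay between -0.11 (miR-183-5p, -0.79 to 0.57) and 0.13 (miR-142-5p, -0.55 to 0.81). Ccl6, the member whose 3′ UTR holds the miR-222-3p match printed above, thus had an interval in miR-222-3p that includes no change.

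Ccl22, made by dendritic cells and macrophages, was low in 11 tumours and high in 1. It was at 2.01, 2.35 and 2.74 TPM in ctrl, 1.63, 3.13 and 22.4 TPM in miR-142-5p, 1.75, 2.15 and 1.22 TPM in miR-183-5p and 2.37, 0.841 and 2.31 TPM in miR-222-3p. The log2 fold change in miR-142-5p was 1.88 (SE 0.81, 95% interval 0.28 to 3.47, unadjusted p = 0.0211, adjusted p = 1 in DESeq2) and was 0.07 without tumour 3. In that tumour B cell and T cell genes were high as well, and the dendritic cell genes had their highest sum (11.2 TPM, against 4.40 to 7.38 TPM elsewhere). Of the dendritic cell genes, Flt3 stood out there (3.05 TPM, against at most 0.696 TPM elsewhere). Xcr1 (1.058 against at most 1.052 TPM), Clec9a (2.52 against 2.23 TPM) and Zbtb46 (4.01 against 3.73 TPM) were only a little higher. The part of the B cell, T cell and dendritic cell genes in the Ccl22 value was not tested. In miR-183-5p, whose seed match stands in the Ccl22 3′ UTR, the log2 fold change was -0.44 (-2.04 to 1.17) and -0.24 without tumour 3 of that group, and in miR-222-3p it was -0.36 (-1.97 to 1.25).

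Whether the chemokines changed with each miRNA was then read from 1 fit over all 12 tumours and 15459 genes. None of the 10 passed the threshold of an adjusted p-value under 0.05 in DESeq2 in any of the 3 comparisons against ctrl, and none did in edgeR's quasi-likelihood test. Over all genes, 0.00647% passed in miR-142-5p, 0.0259% in miR-222-3p and 0% in miR-183-5p. At an unadjusted p under 0.05, DESeq2 and edgeR each counted 1 chemokine in miR-142-5p (Ccl22 in DESeq2, against 3.55% of all genes), 1 in miR-183-5p (Ccl12, against 3.21%) and 0 in miR-222-3p (against 2.28%).

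In miR-142-5p, 1 of the 10 genes, Ccl2, had 3 tumours below all ctrl tumours, a pattern shown by 2.94% of all genes, and 0 had 3 tumours above (3.12% of all genes). In miR-183-5p, 2 of 10, Ccl5 and Ccl12, lay below all ctrl tumours (4.75% of all genes) and 0 above (4.42%). In miR-222-3p, 0 lay below (2.56%) or above (2.94%). The fold change was below 0 for 4 of 10 chemokines in miR-142-5p (51.2% of all genes), 8 of 10 in miR-183-5p (52.7%) and 7 of 10 in miR-222-3p (52.0%). The median log2 fold change of the 10 was 0.08, -0.17 and -0.14, and that of all genes -0.005, -0.01 and -0.008, in this order. With 1 tumour left out the median of the 10 lay between -0.17 and 0.17 (miR-142-5p), -0.37 and -0.08 (miR-183-5p) or -0.30 and 0.08 (miR-222-3p). It was 0.10 for miR-222-3p with the library set in the fit. The sign for Ccl2, Ccl3, Ccl5, Ccl6, Ccl8, Ccl9 and Ccl22 turned in at least 1 comparison when the library set entered the fit.

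**Figure D2:**
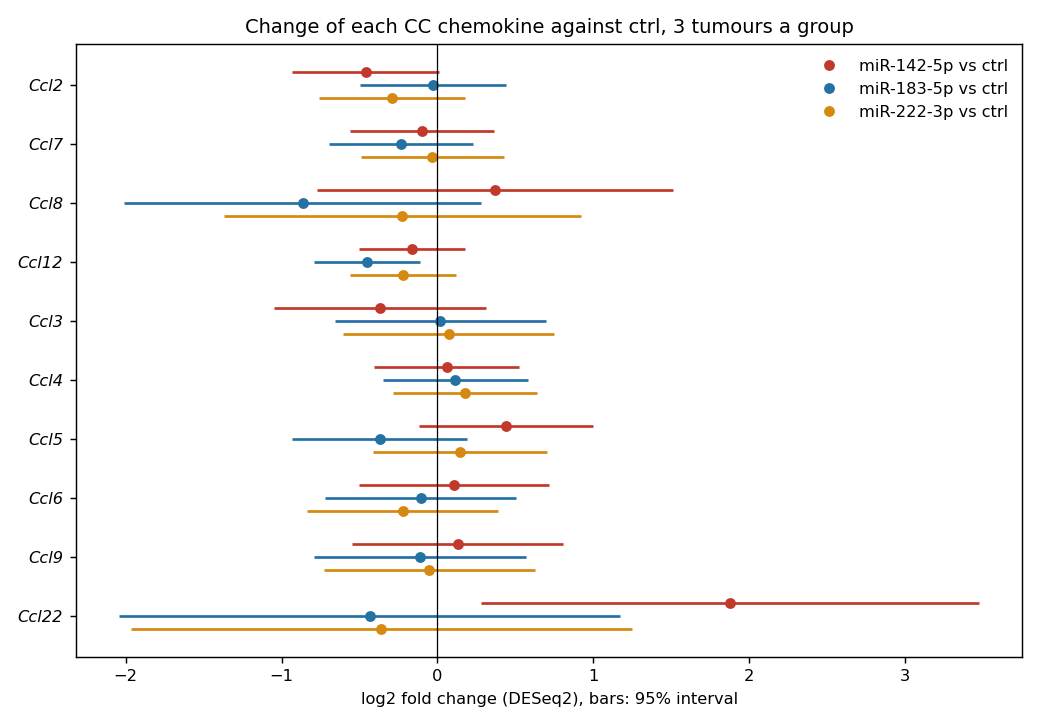
Log2 fold change of each CC chemokine against ctrl for the 3 EV-delivered miRNAs (points, DESeq2, 3 tumours a group) with 95% intervals (bars). The bar of Ccl12 in miR-183-5p (-0.79 to -0.11) and that of Ccl22 in miR-142-5p (0.28 to 3.47) do not cross 0 before adjustment, and neither passed after it.

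The miRNA groups were also compared with each other. Between miR-183-5p and miR-142-5p, 0 chemokines passed the threshold in DESeq2 (0.0517% of all genes did), and 0 in edgeR. Both counted 3 with an unadjusted p under 0.05 (7.92% of all genes had one in DESeq2), which in DESeq2 were Ccl22, Ccl5 and Ccl8, all with a value below 0. Ccl5 was at 29.7 to 39.8 TPM in miR-183-5p and 40.0 to 96.4 TPM in miR-142-5p, and its log2 fold change was -0.81 (SE 0.28, -1.37 to -0.25, adjusted p = 0.277 in DESeq2). Without miR-142-5p tumour 3 it was -0.39, and without miR-142-5p tumour 1 it was -1.005 and passed (adjusted p = 0.0297). Ccl8, at 84.2 to 136 TPM against 172 to 446 TPM, had a log2 fold change of -1.23 (SE 0.58, -2.38 to -0.09, adjusted p = 0.570 in DESeq2) with -1.50 without miR-142-5p tumour 3 and -0.68 without miR-142-5p tumour 2. The groups did not overlap for these 2 genes, with miR-183-5p below miR-142-5p as for 6.43% of all genes, and 0 chemokines lay the other way (5.92%).

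For Ccl22 the log2 fold change between miR-183-5p and miR-142-5p was -2.31 (SE 0.82, -3.91 to -0.72, adjusted p = 0.280 in DESeq2). It was -0.50 without miR-142-5p tumour 3, and passed when miR-142-5p tumour 1 (-2.80, adjusted p = 0.000904) or tumour 2 (-2.71, adjusted p = 0.0311) was left out. Between miR-142-5p and miR-222-3p, 0 chemokines passed in DESeq2 (0.0388% of all genes) or edgeR, and 0 had groups that did not overlap (2.90% of all genes with miR-142-5p above and 3.29% with it below). Ccl22 was there the only chemokine with an unadjusted p under 0.05 (3.58% of all genes had one), with a log2 fold change of 2.24 (SE 0.82, adjusted p = 0.924 in DESeq2) and 0.43 without miR-142-5p tumour 3. It passed without miR-142-5p tumour 1 (2.72, adjusted p = 0.00474). Between miR-183-5p and miR-222-3p, 0 chemokines passed (0.0323% of all genes in DESeq2) and 0 had an unadjusted p under 0.05 in DESeq2 or edgeR (3.23% of all genes in DESeq2). Ccl5 was the 1 gene of the 10 whose miR-183-5p tumours lay below all miR-222-3p tumours (4.46% of all genes), and 0 lay above (4.59%).

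The receptors of these ligands were measured in the same libraries. Ccr1, the receptor of Ccl6, Ccl9, Ccl3 and Ccl5, was at 40.7 to 62.6 TPM, and Ccr2 at 22.5 to 35.5 TPM. Both were thus present in every tumour, and all group means of Ccr1 lay between 44.7 and 53.6 TPM. Ccr4, the receptor of Ccl22, was near 0 in most tumours (0.021 to 0.45 TPM) and at 1.25 TPM in miR-142-5p tumour 3. Ccr3 (0 to 0.175 TPM) and Ccr8 (0 to 0.609 TPM) did not pass the filter on low counts. The log2 fold change of Ccr2 was 0.23 (-0.10 to 0.57) in miR-142-5p and -0.01 (-0.34 to 0.33) in miR-183-5p.

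With the tested receptors counted in, 23 pathway genes other than the members were tested, and 0 passed the threshold in any comparison in DESeq2 or edgeR. These were the remaining CC ligands, receptors, the atypical receptors that bind or scavenge chemokines, and NF-kappaB factors and inhibitors, which govern the induction of several members. At an unadjusted p under 0.05, DESeq2 counted 2 against ctrl in miR-142-5p (3.55% of all genes), 1 in miR-183-5p (3.21%) and 1 in miR-222-3p (2.28%), and edgeR counted 3, 1 and 1. In miR-142-5p these were Ccr7, the receptor that guides cells to lymph nodes, with a log2 fold change of 2.31 (SE 0.80) and 0.20 without tumour 3, and Ccl28, a mucosal chemokine present at 0.295 TPM or less, with -1.65 (SE 0.70). Ccr7 was at 16.1 TPM in miR-142-5p tumour 3 and at 0.439 to 1.91 TPM elsewhere. In miR-183-5p the gene was Ccr4, with -1.80 (SE 0.90), and in miR-222-3p it was Nfkb2, with -0.30 (SE 0.13), at 37.1 to 41.5 TPM against 41.3 to 54.4 TPM in ctrl.

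Between the miRNA groups, DESeq2 counted 6 of the 23 at an unadjusted p under 0.05 between miR-183-5p and miR-142-5p (7.92% of all genes) and 3 without miR-142-5p tumour 3. Ccr7 (log2 fold change -2.60), Ccr4 (-2.99) and Ccl21a (-10.17) were lower in miR-183-5p by value and were -0.49, -1.95 and -5.33 without that tumour. The NF-kappaB inhibitors Tnfaip3 (0.54, SE 0.22) and Nfkbia (0.47, SE 0.22) and the ligand gene Ccl28 (1.59, SE 0.69) had values above 0, also without it (0.67, 0.41 and 1.56). Between miR-142-5p and miR-222-3p the count was 4 (3.58% of all genes), namely Ccr7, Ackr2, Ccr4 and Ccl28, and 1 without miR-142-5p tumour 3. Between miR-183-5p and miR-222-3p it was 1, Nfkb2 (0.27, SE 0.13), against 3.23% of all genes. With the library set in the fit the 3 counts were 6, 1 and 0 in this order (4.33%, 2.42% and 5.05% of all genes).

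Of the atypical receptors, Ccrl2, which presents rather than takes up its ligand, was at 5.72 to 13.2 TPM and did not separate the groups. Ackr2, a scavenger of inflammatory CC chemokines, was at 3.09 TPM in miR-142-5p tumour 3 and at 0.699 TPM or less elsewhere. Ackr1 and Ackr4 did not pass the filter on low counts and also had their highest values, 1.40 and 1.59 TPM, in that tumour. The lymphoid ligands Ccl21a and Ccl19, which act on Ccr7, were at 315 and 84.1 TPM in miR-142-5p tumour 3 and at most 6.53 and 0.354 TPM elsewhere. Ccl21a is one of several near-identical gene copies, so its reads could be split among them.

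**Figure D3:**
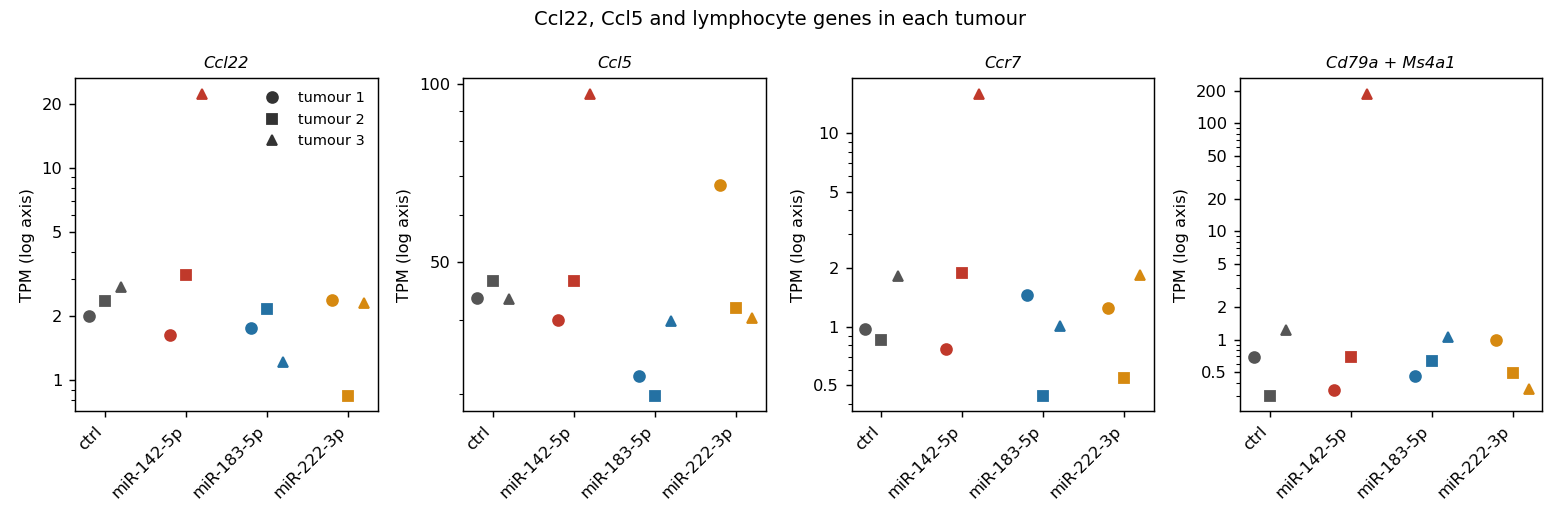
Ccl22, Ccl5, the receptor gene Ccr7 and the sum of the B cell genes Cd79a and Ms4a1 in each tumour, in TPM on log axes (points, tumours 1 to 3 by symbol). The 4 highest points all belong to miR-142-5p tumour 3, at 22.4, 96.4, 16.1 and 189 TPM.

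How the chemokines varied among tumours of the same group was compared with other genes. The SD of log2 normalised counts within groups was 1.04 for Ccl22, wider than for 99.5% of the 11542 genes whose mean normalised count was 100 or more, and 0.73 for Ccl8, wider than for 98.2%. It was 0.53 for Ccl9, 0.49 for Ccl6 and 0.45 for Ccl3, all above the 93rd percentile. Ccl12 was the steadiest of the 10 with 0.19, which was also the median over all these genes (0.19). Without miR-142-5p tumour 3 the SD of Ccl22 was 0.55, wider than for 96.3% of these genes, and that of Ccl8 was 0.72. The comparisons above were thus narrowest for Ccl12 and widest for Ccl22 and Ccl8.

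Pairs of chemokines were then compared across the 12 tumours, by log2(normalised count + 1). Of 45 pairs, 31 had a Pearson r above 0, with a median of 0.20, and 0 passed at an adjusted p under 0.05 by r or by Spearman's rho (100000 permutations, Benjamini-Hochberg over the 45 pairs). The highest r was that of Ccl5 and Ccl22 (r = 0.74, permutation p = 0.0242, adjusted p = 0.201, rho = 0.43, permutation p = 0.160), which was 0.19 without miR-142-5p tumour 3 and 0.15 without the 2 tumours farthest from the median of Ccl5. It was 0.89 within the larger library set of 8 tumours, which holds miR-142-5p tumour 3. Ccl6 and Ccl9 followed (r = 0.72, permutation p = 0.0073, adjusted p = 0.196, rho = 0.52, permutation p = 0.0829), with r = 0.34 without the 2 farthest tumours and 0.74 within the larger set. Their relation therefore rested in part on ctrl tumour 2 and miR-222-3p tumour 2. Ccl3 had r = 0.69 with its neighbour Ccl4 (permutation p = 0.0146, adjusted p = 0.196, rho = 0.69, permutation p = 0.0169), with 0.60 without the 2 farthest tumours and 0.79 within the larger set. Ccl2 and Ccl3 had r = 0.70 (permutation p = 0.0135, adjusted p = 0.196, rho = 0.63, permutation p = 0.0324), with 0.61 without the 2 farthest and 0.72 within the larger set. Ccl8 and Ccl9 had the highest rho of all pairs (rho = 0.76, permutation p = 0.00607, adjusted p = 0.254, r = 0.67, permutation p = 0.0175, adjusted p = 0.196), with r = 0.61 without the 2 farthest and 0.64 within the larger set. No pair of neighbouring genes passed the adjustment.

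The promoters of Ccl6 and Ccl9 are shown because these genes are neighbours whose levels had r = 0.72, although this fell to 0.34 without the 2 farthest tumours. Both windows, from RefSeq (GRCm38.p6), run from 250 bases before to 50 bases after the start of the gene on the minus strand of chromosome 11, at chr11:83593038-83593337 for Ccl6 and chr11:83578587-83578886 for Ccl9. Capitals mark runs of 10 or more bases found in the other promoter.
Ccl6: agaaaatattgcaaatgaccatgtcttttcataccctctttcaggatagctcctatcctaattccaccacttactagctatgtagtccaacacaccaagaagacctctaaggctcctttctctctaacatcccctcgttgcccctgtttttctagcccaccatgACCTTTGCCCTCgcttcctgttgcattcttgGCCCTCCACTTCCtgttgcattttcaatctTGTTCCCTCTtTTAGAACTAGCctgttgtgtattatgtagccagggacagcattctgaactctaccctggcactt
Ccl9: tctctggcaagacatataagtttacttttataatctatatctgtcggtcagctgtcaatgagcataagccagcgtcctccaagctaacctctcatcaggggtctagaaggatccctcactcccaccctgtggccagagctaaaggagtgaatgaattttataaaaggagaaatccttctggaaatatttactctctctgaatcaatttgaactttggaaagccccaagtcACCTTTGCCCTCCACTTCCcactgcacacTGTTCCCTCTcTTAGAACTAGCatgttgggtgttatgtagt
Such runs covered 46 bases of the Ccl6 window and 40 bases of the Ccl9 window. Among the 32850 other promoters, with the partner counted in, 1 shared as many bases with that of Ccl6, namely that of Ccl9 itself. For Ccl9 the number was 2, and that of Ccl6 was 1 of them. Promoters were found for 6 of the 10 genes, and those of Ccl2, Ccl4, Ccl5 and Ccl7 were not available and not searched. Of the 6, only that of Ccl9 held a match to the NF-kappaB consensus on either strand within its window, 35 bases before the start, and 8.46% of all 32851 promoters held one.

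The chemokines were also set beside marker genes of cell types, in 430 pairs of a chemokine and a marker (n = 12 tumours, Benjamini-Hochberg over the 430). Of these, 7 passed by r and 2 by rho, and both of the latter joined Ccl8 to a macrophage gene. Ccl8 had r = 0.93 with Mrc1, the macrophage mannose receptor (permutation p = 2e-05, adjusted p = 0.0086, rho = 0.99, permutation p = 1e-05, the smallest they can give, adjusted p = 0.0043), and r = 0.85 with the lysosomal macrophage gene Cd68 (permutation p = 0.00045, adjusted p = 0.0276, rho = 0.90, permutation p = 0.00012, adjusted p = 0.0258). Without the 2 tumours farthest from the median of Ccl8, r was 0.90 and 0.78, and within the larger library set it was 0.95 and 0.91. Of the 7 monocyte and macrophage genes, r with Ccl8 was also 0.88 for Csf1r, 0.82 for C1qa and 0.73 for Adgre1. It was 0.08 for Cd14 and -0.70 for Ly6c2, a gene of freshly recruited monocytes. Of these, Csf1r and C1qa passed by r (adjusted p = 0.0244 and 0.0276, permutation) and not by rho. The collagen gene Col1a1 went the other way, with r = -0.87 (permutation p = 0.0004, adjusted p = 0.0276, rho = -0.79, permutation p = 0.0034, adjusted p = 0.122) and -0.76 without the 2 farthest tumours. Of the other fibroblast genes, Dcn had r = -0.65 with Ccl8 and Pdgfra had r = 0.55.

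Ccl9 had r = 0.88 with Pdgfra, a fibroblast gene (permutation p = 0.00017, adjusted p = 0.0244, rho = 0.85, permutation p = 0.00073, adjusted p = 0.0785), and r = 0.86 with the endothelial gene Pecam1 (permutation p = 0.00042, adjusted p = 0.0276, rho = 0.83, permutation p = 0.00153, adjusted p = 0.094). These were 0.84 and 0.72 without the 2 farthest tumours. The other fibroblast genes, Col1a1 and Dcn, had r below 0 with Ccl9 (-0.63 and -0.14), so that the list did not move as one, while Cdh5 and Kdr, the other endothelial genes, had r = 0.72 and 0.59. Ccl9 also had r above 0 with 6 of the 7 monocyte and macrophage genes (-0.80 to 0.81) and all 4 dendritic cell genes (0.46 to 0.78). With all 4 carcinoma genes its r was below 0 (-0.80 to -0.52), and none of these pairs passed the adjustment. Ccl2, Ccl3, Ccl4, Ccl6, Ccl7 and Ccl9 had r above 0 with all 6 neutrophil genes, with the highest medians for Ccl3 (0.74) and Ccl2 (0.67). Ccl5, Ccl12 and Ccl22 had r below 0 with all 6, with the lowest median for Ccl5 (-0.61). No pair of a chemokine with a neutrophil gene passed the adjustment. The neutrophil genes summed to 1879 to 3042 TPM in miR-183-5p, 1051 to 2010 TPM in ctrl, 1019 to 1660 TPM in miR-142-5p and 882 to 2009 TPM in miR-222-3p. Most of each sum came from S100a8 and S100a9, with means of 748 and 1504 TPM in miR-183-5p and 478 and 954 TPM in ctrl. Retnlg (99.3 against 63.4 TPM) and Ly6g (2.66 against 2.08 TPM) also had higher means in miR-183-5p. The means of Csf3r (36.9 against 35.1 TPM) and Cxcr2 (10.5 against 9.40 TPM) were close. The highest sums stood in the miR-183-5p group, which overlapped with ctrl in this measure and in which Ccl5 and Ccl12 lay below ctrl, and their part in these values was not tested.

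**Figure D4:**
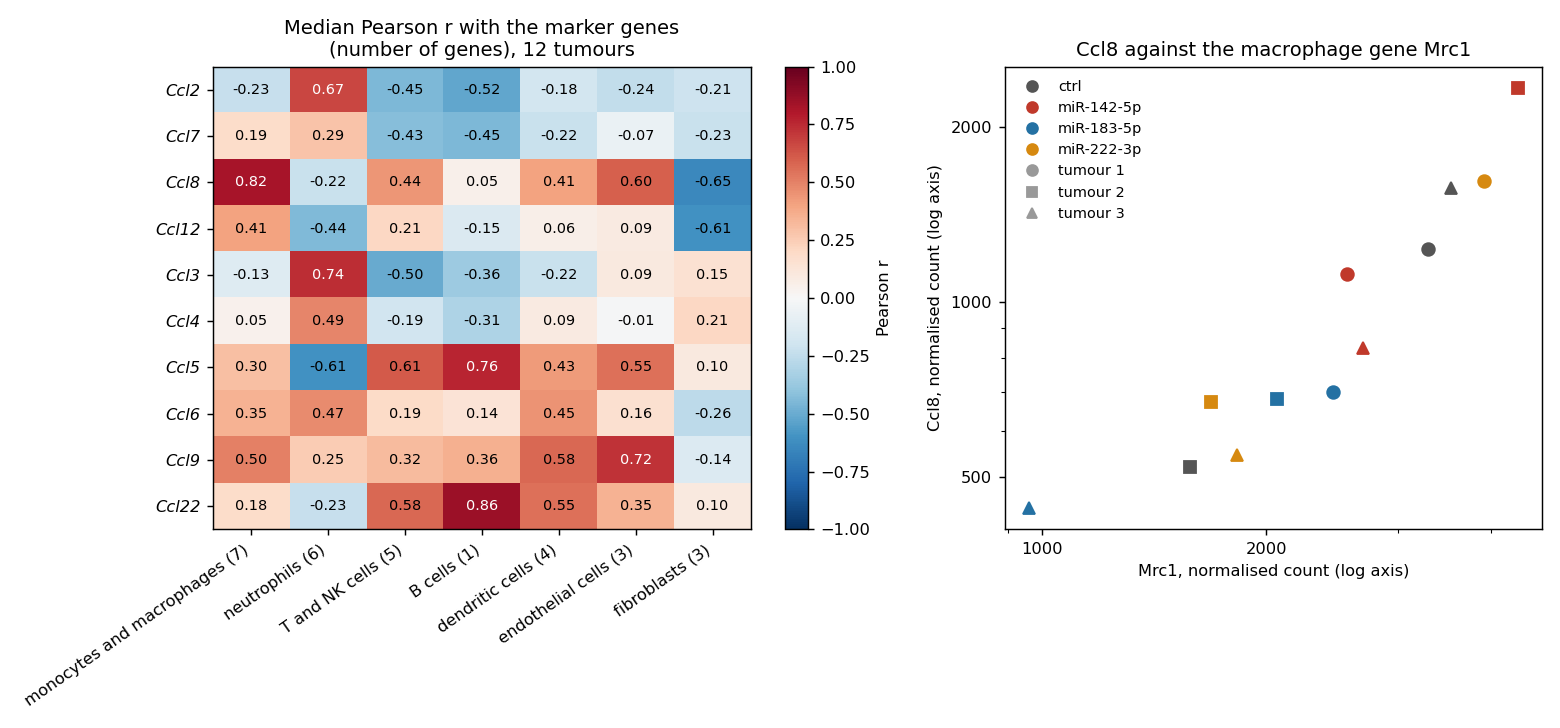
Left, median Pearson r over 12 tumours between each CC chemokine and the marker genes of 7 cell types (number of genes in brackets, colour from -1 to 1), where Ccl8 had 0.82 with the monocyte and macrophage genes and Ccl3 had 0.74 with the neutrophil genes. Right, normalised counts of Ccl8 against Mrc1 on log axes, 1 point per tumour, coloured by group.

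Among 11541 other genes, all with mean normalised counts of 100 or more, those with the pattern most like each chemokine were listed, as a description over 12 tumours that come from both library sets. For Ccl8 they were Sirpa (r = 0.96), a receptor of myeloid cells, Lgmn (0.96), a lysosomal protease, and Fcgr2b (0.96), the inhibitory Fc receptor. For Ccl9 they were Tgfbr3 (0.95), Slc40a1 (0.94), the iron exporter ferroportin, and Dusp27 (0.94). For Ccl3 they were Clec4d (0.91), a C-type lectin of myeloid cells, Dysf (0.89) and the macrophage metalloelastase Mmp12 (0.86). These 3 chemokines had the same r within 0.02 without miR-142-5p tumour 3.

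For Ccl22 the most alike were Kbtbd11 (r = 0.92), the leukocyte tetraspanin Cd37 (0.92) and Neil1 (0.91), which had r = 0.64, 0.49 and 0.44 without miR-142-5p tumour 3. For Ccl5 they were Stk4 (0.92), the dendritic cell growth factor Flt3l (0.89) and the T cell kinase Prkcq (0.89), which had r = 0.78, 0.75 and 0.75 without it. For Ccl2 they were Rabggtb (0.88), Rnd1 (0.85) and Dtwd1 (0.82), for Ccl4 Runx1 (0.85), Smyd3 (0.84) and Zfp9 (0.83), for Ccl6 Thap3 (0.89), Neu1 (0.88) and Selp (0.87), for Ccl7 0610012G03Rik (0.91), Dhx30 (0.89) and Dctn2 (0.89), and for Ccl12 Rsad1 (0.88), Tagap1 (0.88) and Naaa (0.87).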

How the data were processed

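One library per tumour, from polyadenylated RNA and a stranded kit, was analysed. The authors quantified reads with Salmon (GRCm38, per the labels), and the deposited tables hold for each of 118783 transcripts an estimated count and a TPM. The methods and the tables name different Ensembl releases, so transcripts were matched to GENCODE M21, which placed 98.3%. Unmatched transcripts held at most 0.671% of reads.

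Estimated counts and TPM were summed per gene. Counts were rounded and tested with DESeq2 1.42.0 in R 4.3.3 (Wald test, unshrunken log2 fold change, average transcript length as an offset, group as the only factor, Benjamini-Hochberg over all genes). The fit kept genes that reached 10 reads in 3 or more libraries. Alternatives were edgeR 4.0.16 and the settings named at the end. Correlations used Python 3.11.15, numpy 2.4.6 and scipy 1.17.1, mRNAs were compared by BLAST 2.17.0, and plots used matplotlib 3.10.9. The fits were tested on simulated data.

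Groups came from the labels. Same-numbered tumours did not deviate together on average (mean residual r = -0.07, from -0.58 to 0.36), so numbers were not used as pairs. Counts of library pairs within groups differed beyond sampling noise. P-values measure the spread between tumours. The members, the other pathway genes, the receptors and the markers were chosen with earlier results of these data known, and the genes named are the members, pathway genes with an unadjusted p under 0.05 against ctrl, receptors of the members, atypical receptors and the 3 genes most correlated with each member. Ccl19, Ccl21a and the pathway genes named between miRNA groups were named after their values were seen. A receptor gene and a marker gene of these lists are not reported here.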

Additional observations from a re-analysis of the deposited data

How the results depend on the processing

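The 10 chemokines gave 0 calls in all 6 comparisons under every alternative that left out no tumour of the groups compared (edgeR, TMM factors in DESeq2, no count filter, at least 50 reads in every library, counts with no length offset, a fit of the 2 groups alone, the library set as a covariate, the replicate number as a block, adjusted p under 0.1). Ccl22 was lost to the filter of 50 reads. With 1 tumour left out at a time the number of chemokines called was 0 to 1 for miR-142-5p against ctrl, 0 to 2 for miR-183-5p over miR-142-5p and 0 to 1 for miR-142-5p over miR-222-3p, with the highest counts without miR-142-5p tumour 1, and 0 in the other 3 comparisons. The other pathway genes called ranged from 0 to 1 in the same 3 comparisons. Of 267 log2 fold changes under settings that left out no tumour of the groups compared, 256 kept their sign, and of 204 with a tumour left out, 176 did, 5 of which passed the threshold. With 3 tumours a group, the spread of Ccl8 and Ccl22 limits what these comparisons can show.

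With the library set as a covariate the sign turned, to 0.027 for Ccl2, -0.079 for Ccl3 and 0.053 for Ccl6 in miR-183-5p against ctrl, and in miR-222-3p against ctrl to -0.21 for Ccl3, -0.22 for Ccl5, 0.32 for Ccl6, 0.42 for Ccl8, 0.27 for Ccl9 and 0.32 for Ccl22. Without the length offset it turned to -0.00028 for Ccl3 in miR-183-5p and 0.057 for Ccl9 in miR-222-3p. Only the miR-183-5p group holds tumours of both library sets, so the set term of the covariate fit rests on tumour 3 of that group. Beyond this the cause was not tested, and none of the values above passed the threshold in either fit. Leaving out 1 tumour moved the log2 fold change across 0 for some genes. In miR-142-5p against ctrl the range was -0.14 to 0.18 for Ccl4, -0.16 to 0.32 for Ccl6, -0.23 to 0.13 for Ccl7, -0.18 to 0.71 for Ccl8 and -0.18 to 0.56 for Ccl9. In miR-183-5p it was -0.29 to 0.14 for Ccl2, -0.18 to 0.23 for Ccl3, -0.10 to 0.22 for Ccl4, -0.37 to 0.11 for Ccl6 and -0.42 to 0.32 for Ccl9. In miR-222-3p it was -0.25 to 0.27 for Ccl3, -0.076 to 0.25 for Ccl5, -0.48 to 0.081 for Ccl6, -0.24 to 0.19 for Ccl7, -0.86 to 0.11 for Ccl8 and -0.36 to 0.38 for Ccl9. By the median over tumours, Ccl7 ranked 5 and Ccl5 ranked 6 by level.

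The numbers of all genes called moved more. The 6 counts were 1 (miR-142-5p against ctrl), 0 (miR-183-5p against ctrl), 4 (miR-222-3p against ctrl), 8 (miR-183-5p over miR-142-5p), 5 (miR-183-5p over miR-222-3p) and 6 (miR-142-5p over miR-222-3p). EdgeR called 0 in each. With a fit of the 2 groups alone they were 15 for miR-222-3p against ctrl and 37 for miR-183-5p against ctrl, 70 for miR-183-5p over miR-142-5p, 17 for miR-183-5p over miR-222-3p and 14 for miR-142-5p over miR-222-3p. With the library set as a covariate they were 2 (miR-142-5p against ctrl), 14 (miR-222-3p against ctrl), 0, 36 and 21 (the last 3 in the order above). At an adjusted p under 0.1 they were 7 for miR-222-3p against ctrl and 38 for miR-183-5p over miR-142-5p. With at least 50 reads in every library the 3 comparisons with miR-222-3p gave 0. Without the length offset miR-142-5p against ctrl gave 0, and miR-183-5p over miR-142-5p gave 4 without it and 5 with no count filter. Leaving out 1 tumour gave 0 to 75 for miR-142-5p, 0 to 15 for miR-183-5p and 2 to 6 for miR-222-3p against ctrl, 0 to 415 for miR-183-5p over miR-142-5p, 1 to 16 for miR-183-5p over miR-222-3p and 2 to 72 for miR-142-5p over miR-222-3p. The highest of these counts were without miR-142-5p tumour 1, miR-183-5p tumour 2, miR-222-3p tumour 1, miR-142-5p tumour 1, miR-183-5p tumour 3 and miR-142-5p tumour 1.

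Tumours with the same number did not deviate together on average, so the replicate number was not used as a pairing. With 3 tumours a group these correlations cannot exclude one. As a block the replicate number left the chemokines at 0 calls and changed the number of all genes called to 1 for miR-183-5p against ctrl, 6 for miR-222-3p against ctrl, 6 for miR-183-5p over miR-142-5p, 9 for miR-183-5p over miR-222-3p and 5 for miR-142-5p over miR-222-3p. The count for miR-142-5p against ctrl stayed at 1, a gene below ctrl without the block and a gene above ctrl with it. Whether both fits called the same gene was not compared.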
